A study of Rattus norvegicus with 10 samples.

Results

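The genes examined here encode the nuclear part of oxidative phosphorylation in rat liver. They are the 117 genes, of 20226 in the deposited table, with at least 1 isoform whose KEGG entry (Kyoto Encyclopedia of Genes and Genomes, a catalogue of pathways) names that pathway, among isoforms that match or overlap a reference gene. They were sorted by symbol into 38 Nduf genes of complex I, 4 Sdh genes of complex II, 8 Uqcr and Cyc1 genes of complex III, 19 Cox genes of complex IV, 15 Atp5 genes of complex V and 20 Atp6 genes of the vacuolar ATPase. The remaining 13 had other symbols. The KEGG text stood on 150 isoforms, and the values below sum all 206 accepted isoforms of the 117 genes. Liver RNA came from wild-type Wistar rats, 5 samples after sleeve gastrectomy (SG), an operation that leaves a narrow tube of stomach, and 5 after a sham operation (SHAM). Every rat in both groups had eaten a diet with 60% of its calories as fat for 4 weeks and received 35 mg/kg streptozotocin, which destroys pancreatic beta cells, after 16 h without food. Rats entered the study when fasting glucose 3 days later was above 16.7 mmol/L. SG livers are labelled as taken 3 months after the operation, whereas SHAM livers carry no time, so time and operation cannot be told apart.

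In mitochondria, complex I takes electrons from NADH and complex II takes them from succinate. Both pass them to ubiquinone, from which complex III hands them to cytochrome c and complex IV to oxygen. Complexes I, III and IV pump protons, and complex V, the ATP synthase, uses the gradient to make ATP, which in liver pays for gluconeogenesis and urea synthesis. The catalytic core of each pump is small, and many accessory subunits surround it. Some core subunits are encoded by mitochondrial DNA and were not analysed here. The vacuolar ATPase spends ATP to acidify lysosomes and endosomes, and KEGG lists it on the same pathway map.

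Total estimated counts ranged from 77617460 to 92110190 per SG library and from 65824088 to 85520959 per SHAM library. The oxidative phosphorylation genes took 408446 to 533742 of these counts in SG and 359533 to 506044 in SHAM. All 6 hepatocyte markers were present, with a summed level of 22390 to 36670 FPKM (fragments relative to transcript length and library size). The 7 macrophage markers summed to 182 to 203 FPKM in 4 SG libraries and 398 in SG 2, and to 156 to 244 in 4 SHAM libraries and 356 in SHAM 5. Fibroblast and stellate cell markers summed to 36.6 to 92.7 FPKM in SG, highest in SG 2, and to 27.4 to 56.5 in SHAM. Endothelial markers summed to 44.3 to 61.5 in SG and 32.0 to 69.2 in SHAM. Red blood cell markers summed to 20.6 to 92.3 in SG and 44.7 to 219.8 in SHAM. In bulk liver, fewer cells of a type and less RNA per cell cannot be told apart. Nothing in the labels ties a sample to a separate rat, and the p-values therefore reflect only the spread among samples.

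The alpha and beta subunits of the ATP synthase head, Atp5f1a and Atp5f1b, had the highest levels of the set. A mean of at least 1 FPKM was required for testing, and 103 of the 117 genes reached it. The median level of the 103 was 31.2 FPKM, against 5.60 over the 11139 genes tested in all. Atp5f1b, the catalytic beta subunit of ATP synthase, averaged 427 FPKM over the 10 libraries, and Atp5f1a, the alpha subunit beside it, 213. Cox4i1, a subunit of cytochrome c oxidase (complex IV), followed at 148, and Cox6a1 and Cox8a, small subunits of the same complex, at 112 and 106. Atp6v0c, the proteolipid of the vacuolar proton channel, averaged 101 FPKM. The levels of these last 3 overlapped across libraries.

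Levels were most even in complex II and most uneven in complexes IV and V. The 4 complex II genes lay within a 1.40-fold range of mean FPKM, from 55.0 for the membrane anchor Sdhc to 77.1 for the flavoprotein Sdha, which oxidizes succinate. Complex III spanned 5.89-fold, from Uqcrb at 15.7 FPKM to Uqcrq at 92.5, both small accessory subunits. Most of the Uqcrb value was assigned to a single-exon row elsewhere, and the spliced gene alone averaged 3.56 FPKM. The lowest tested gene of complex I was Ndufs4, an accessory subunit, at 7.73 FPKM. Complex IV spanned 53.1-fold, and its list also holds assembly factors such as the heme-modifying enzyme Cox10, at 2.78 FPKM. Its 10 structural subunits stayed within 5.84-fold. Complex V spanned 48.0-fold, down to the stalk subunit Atp5pf at 8.89 FPKM.

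**Figure D1:**
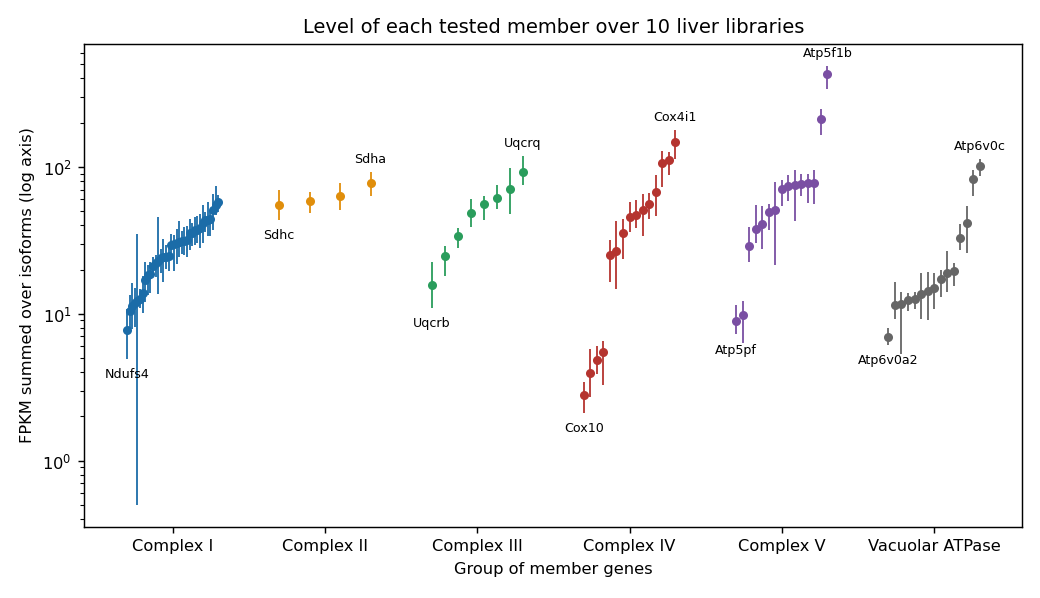
Mean FPKM (log axis) of each tested gene over the 10 libraries, ordered within its complex, with vertical lines from the lowest to the highest library. Complex II genes lie between 55.0 and 77.1 FPKM, Atp5f1b stands highest at 427, and the line of Ndufa1, listed at 0 in 3 libraries, is drawn down to the axis value 0.5.

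Several subunits have a second gene known from heart, muscle, lung or testis, and 10 such pairs, of 13 on the list, could be compared. In each compared pair with a tissue-restricted form, the other form was the abundant one. Cox6a1 averaged 112 FPKM, while its heart and muscle counterpart Cox6a2 was listed at 0 in 8 of 10 libraries and averaged 0.013. Cox4i1 averaged 148 FPKM against 0.14 for Cox4i2, the lung form, and Cox6b1 averaged 46.8 against 0.15 for Cox6b2, the testis form. Cox8b was listed at 0 in 6 libraries, and Ndufa4l2, a paralogue of Ndufa4, in 5. Kidney forms of the vacuolar ATPase were also scarce, with Atp6v1b1 at 0.034 FPKM against 13.6 for Atp6v1b2, and Atp6v0a4 at 0.045 against 17.1 for Atp6v0a1. The 3 genes for the c subunit of the ATP synthase ring were all expressed, at means of 75.0 (Atp5mc1), 50.5 (Atp5mc2) and 77.5 FPKM (Atp5mc3). Most of the 14 untested genes were such restricted forms. They were Atp12a, Atp4a, Atp6v0a4, Atp6v0d2, Atp6v1b1, Atp6v1c2, Atp6v1g2, Cox4i2, Cox6a2, Cox6b2, Cox8b, Ndufa4l2, Ndufs6 and LOC687508, which RefSeq names Cox7a1.

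Whether the operation was accompanied by a different level of these genes was then compared, with edgeR's quasi-likelihood test on the counts of all 11139 genes. None of the 103 genes passed at a Benjamini-Hochberg adjusted p of 0.05 (smallest adjusted p = 0.991), and neither did any other gene (0.0% called). Small differences were uneven in direction. At an unadjusted p under 0.05 stood 14 of the 103 (13.6%), against 4.53% of all genes tested. Of the 14, 13 were higher in SG, where 2.68% of all genes were, and 1, Uqcrfs1, was lower, where 1.85% were. Every SG library exceeded every SHAM library, on log2 CPM (scaled counts per 1e6 counts), for 5 of the 103 genes (4.85%) against 0.521% of all genes. The reverse held for 0 of the 103, against 0.269% of all genes.

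The sizes were small and the precision comparatively high. The median log2 fold change, SG over SHAM, was 0.04 over the 103 genes and -0.01 over all genes tested, and 61 of the 103 were positive. When each library was left out in turn, the median ranged from 0.00 without SHAM 5 to 0.08 without SHAM 3. SHAM 5 was the SHAM library with the lowest summed level of these genes. Without it, 11 of the 103 were higher and 3 lower at an unadjusted p under 0.05. Over all genes, 644 of 11127 then stood under that p in either direction. The 95% interval excluded a change of 1.5-fold either way for 83 of the 103 genes (80.6%), against 60.6% of all genes. It excluded a 2-fold change for 100. The median standard deviation of log2 CPM within a group was 0.18 for these genes, against 0.26 for all genes tested and 0.23 for those of at least 10 FPKM.

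The scale of the values mattered for the direction. Limma on log2(FPKM + 0.5) placed 22 of the 103 at an unadjusted p under 0.05, all higher in SG, where 5.92% of all genes were called higher. On that scale the median of all genes was 0.08, and 83.5% of the 103 were positive, against 69.6% of all genes. In edgeR these shares were 59.2% and 47.4%. The medians of complexes I, III, IV and V were 0.20, 0.19, 0.23 and 0.17 in limma on that scale, against 0.09, 0.09, 0.13 and 0.04 in edgeR. On TPM, FPKM rescaled to a fixed library total, where the median of all genes was 0.00, limma gave 11, all higher, against 2.22% of all genes. DESeq2 gave 16, 14 of them higher, against 3.39% of all genes, and none of the 103 passed its adjusted threshold (smallest adjusted p = 0.0913), although 18 other genes did.

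**Figure D2:**
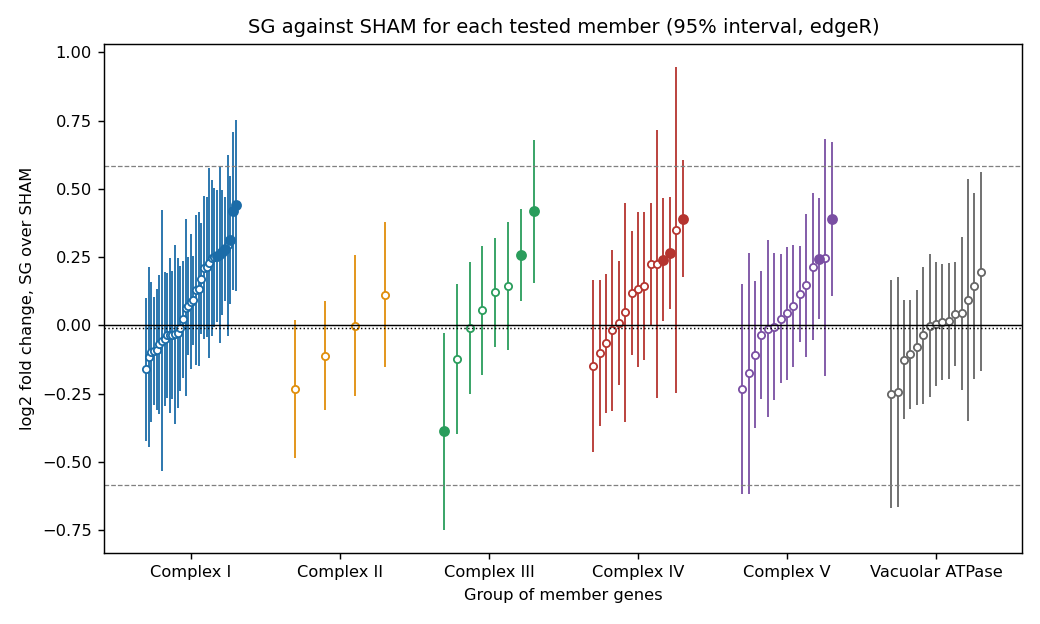
Log2 fold change (SG over SHAM) with its 95% interval from edgeR for each tested gene of the 6 groups, ordered within its group. Filled points have an unadjusted p under 0.05, dashed lines mark a 1.5-fold change, the dotted line is the median of all genes (-0.01), and Ndufa1 (1.78) is left out because its interval runs off the axis.

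Promoters were read for elements known to bind regulators of respiratory genes. RefSeq promoters on the GRCr8 build (250 bases before to 50 after the start) matched 94 of the 117 genes. On either strand, 9.57% of them held GCGCATGC, the core of the NRF1 element, against 2.47% of 33469 promoters of the same length. CCGGAAG, bound by ETS factors such as GABP, was in 24.5% against 8.75%. The extended nuclear receptor site AAGGTCA, which ERR proteins bind, was in 12.8% against 4.61%, and AANATGGCG, bound by YY1, in 20.2% against 3.01%. Each motif was searched separately, and matches of different motifs may overlap. The comparison took every promoter of the collection, without regard to expression in these livers, and 1 promoter per gene of the set. At least 1 of the 4 was present in 47.9% of the 94 promoters, which include untested genes, against 17.2% of all. Among tested genes alone, the share was 58.8% of 68 promoters for complexes I to V and 36.4% of 11 for the vacuolar ATPase. The promoters of the untested Atp6v0a4, Atp6v1b1, Atp6v1c2 and Atp6v1g2 held none of the 4 motifs. Of untested genes with a matched promoter, only the Ndufs6 entry held any, an AAGGTCA and a YY1 match. Promoters were matched by symbol, RefSeq gives the symbol Ndufs6 to the tested LOC679739, and this promoter is not among the 68. Of 10 matched genes higher in SG at an unadjusted p under 0.05, 50.0% had at least 1 of the 4. A match is a stretch of letters and was not tested as a binding site.

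The promoters of 4 genes were chosen because they span the range of the results. Uqcrh and Atp5mf had SG above SHAM in every library in FPKM, but Atp5mf overlapped after scaling of the counts. Atp5f1b was the gene of highest level with no such difference, and Ndufa4 was without overlap between groups and without a match. The 4 promoters are shown 5′ to 3′. They lie at chr5:134790833-134791132, minus strand (Uqcrh), chr12:14535185-14535484, plus strand (Atp5mf), chr7:1099808-1100107, plus strand (Atp5f1b) and chr4:40975510-40975809, minus strand (Ndufa4), all GRCr8. Capitals mark an ETS match in Uqcrh and a YY1 match in Atp5mf and Atp5f1b.
Uqcrh: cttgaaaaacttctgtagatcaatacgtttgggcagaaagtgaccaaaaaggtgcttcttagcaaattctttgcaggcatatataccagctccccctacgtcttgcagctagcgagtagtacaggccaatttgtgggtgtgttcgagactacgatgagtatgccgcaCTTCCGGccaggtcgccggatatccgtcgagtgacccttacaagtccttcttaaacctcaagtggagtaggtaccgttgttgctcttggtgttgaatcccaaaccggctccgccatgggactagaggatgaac
Atp5mf: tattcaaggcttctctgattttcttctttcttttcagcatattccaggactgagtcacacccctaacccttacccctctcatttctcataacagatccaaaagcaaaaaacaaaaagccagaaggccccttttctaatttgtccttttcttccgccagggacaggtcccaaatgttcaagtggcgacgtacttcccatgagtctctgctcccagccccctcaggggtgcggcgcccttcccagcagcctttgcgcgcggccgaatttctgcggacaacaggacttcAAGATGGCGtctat
Atp5f1b: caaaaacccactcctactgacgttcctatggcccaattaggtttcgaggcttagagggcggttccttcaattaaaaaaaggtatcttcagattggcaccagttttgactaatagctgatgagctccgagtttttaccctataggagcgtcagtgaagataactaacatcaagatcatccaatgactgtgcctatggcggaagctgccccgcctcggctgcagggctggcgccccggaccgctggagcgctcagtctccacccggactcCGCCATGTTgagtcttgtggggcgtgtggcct
Ndufa4: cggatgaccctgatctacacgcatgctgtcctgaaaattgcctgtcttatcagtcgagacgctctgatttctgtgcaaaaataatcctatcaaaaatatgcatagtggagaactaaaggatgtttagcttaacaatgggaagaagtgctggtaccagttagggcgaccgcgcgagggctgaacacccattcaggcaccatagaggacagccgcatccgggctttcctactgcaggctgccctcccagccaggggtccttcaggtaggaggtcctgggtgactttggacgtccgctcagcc
The YY1 match lies downstream of the start in both ATP synthase genes, near the beginning of the transcript, and the ETS match of Uqcrh lies upstream.

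Complex I stood at a median log2 fold change of 0.09. Of its 36 tested genes, 22 (61.1%) were positive, against 47.4% of all genes tested. At an unadjusted p under 0.05, 6 (16.7%) were higher in SG, against 2.68% of all genes. With only the isoforms that carry the KEGG text, or only exact reference matches, 33 of the 36 genes were tested. The median over these 33 was 0.17, with 22 positive in both settings. Ndufa4, grouped here by its symbol and since assigned to complex IV, had the smallest p of the 6. Its gene lies at chr4:38233680-38240848 (Rnor_6.0, minus strand). Ndufa4 had 48.8, 44.2, 43.6, 52.6 and 57.9 FPKM in SG 1 to SG 5 and 40.5, 39.2, 33.9, 36.9 and 39.8 in SHAM 1 to SHAM 5. The groups did not overlap, SG 5 was highest and SHAM 3 lowest. The log2 fold change was 0.28 ± 0.09 (SE), with an unadjusted p of 0.00805 and an adjusted p of 0.991 in edgeR.

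Ndufb10 and Ndufs5, accessory subunits with disulfide-forming cysteine motifs, showed the largest of these differences. Ndufb10 (chr10:14090128-14092289) had 13.1, 12.4, 15.1, 14.9 and 14.7 FPKM in SG and 8.14, 8.98, 8.85, 11.5 and 10.7 in SHAM. Every SG library was above every SHAM library in FPKM, though not after scaling of the counts. SG over SHAM came to 0.44 ± 0.14 (SE, log2; unadjusted p = 0.0105 in edgeR). Ndufs5 (chr5:141390580-141405453) had 22.4, 16.1, 21.7, 19.4 and 20.6 FPKM in SG and 13.9, 13.3, 16.1, 14.7 and 12.0 in SHAM. SG 2 was the lowest SG library and met the highest SHAM library. The difference was 0.42 ± 0.13 (SE, log2; unadjusted p = 0.00863 in edgeR).

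The other 3 genes below that p, named because their values were seen, were Ndufb3 (0.31 ± 0.11 SE), Ndufa11 (0.27 ± 0.10) and Ndufb9 (0.25 ± 0.11), all accessory subunits of the membrane arm. Ndufb3 lay between 11.3 and 13.3 FPKM in the SG libraries and between 7.54 and 10.9 in the SHAM libraries, without overlap. Core subunits that carry the flavin and iron-sulfur clusters had values on both sides of 0. Ndufv1, which binds NADH, averaged 32.1 ± 4.74 FPKM after SG and 30.7 ± 3.44 after the sham operation (SD, n = 5), with a log2 fold change of -0.03 with a 95% interval from -0.30 to 0.25. Ndufs1, the largest iron-sulfur subunit, had 31.8 ± 4.33 and 30.5 ± 3.58 FPKM, and -0.03 from -0.27 to 0.20. Both intervals exclude a 1.5-fold change. The sign of each was positive in limma on FPKM. Ndufv2, an iron-sulfur subunit beside Ndufv1, was named after its value was seen. It averaged 56.1 ± 7.11 and 45.3 ± 6.64 FPKM, with a log2 fold change of 0.21 from -0.05 to 0.47.

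Complex II had a median of -0.06, which was 0.00 without SG 2, and 0 of its 4 genes had an unadjusted p under 0.05 in edgeR or were past the adjusted threshold. The flavoprotein Sdha had 84.2, 63.6, 75.2, 87.0 and 87.1 FPKM in SG and 80.6, 92.1, 67.8, 63.6 and 69.4 in SHAM. The groups overlapped over most of their range, and the lowest values belonged to SG 2 and SHAM 4. Its log2 fold change was 0.00 with an interval from -0.26 to 0.26. The iron-sulfur subunit Sdhb had -0.11 ± 0.09 (SE), and the membrane anchors Sdhc and Sdhd had -0.23 ± 0.11 and 0.11 ± 0.12. All 4 intervals exclude a 1.5-fold change. The median of the complex was 0.04 in limma on FPKM.

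Complex III held genes at both ends of the range. Uqcrh, the acidic hinge subunit that contacts cytochrome c1 and the gene with the ETS match (chr5:134919044-134927235, minus strand), had 58.0, 48.1, 52.7, 53.9 and 60.1 FPKM in SG and 45.9, 47.1, 42.8, 39.3 and 38.7 in SHAM. The groups did not overlap, although SG 2 was close to SHAM 2. This gave a log2 fold change of 0.26 ± 0.08 (SE; unadjusted p = 0.00629 in edgeR). Uqcrb, a small subunit near the ubiquinone site, had 17.3, 16.7, 17.8, 18.3 and 22.6 FPKM in SG and 11.6, 12.9, 12.4, 10.9 and 16.5 in SHAM. SG 5 and SHAM 5 were each the highest of their group. The groups came close without overlap in FPKM, but overlapped after scaling of the counts. The difference was 0.42 ± 0.12 (SE, log2; unadjusted p = 0.00500 in edgeR).

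Most of the Uqcrb signal was assigned to a row other than the spliced gene. A single-exon row at chr1:94718402-94718876, which carries the symbol but no KEGG text, averaged 14.4 FPKM in SG and 9.91 in SHAM. The 4-exon gene at chr7:71264514-71269869 averaged 4.17 and 2.96. Both rows were higher in SG by the mean, and the log2 fold change of the chr7 gene alone was 0.40. Reads of a near-identical copy can be split between such rows, so the level of each is uncertain.

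Uqcrfs1 encodes the Rieske iron-sulfur protein, which takes electrons from ubiquinol, and was the 1 gene of the set lower in SG at an unadjusted p under 0.05. It had 79.3, 63.5, 47.7, 56.4 and 68.6 FPKM in SG and 81.1, 98.5, 81.6, 74.3 and 52.0 in SHAM (chr17:35677984-35682259). The groups overlapped: SHAM 5 was lower than 4 of the SG libraries, and SG 1 was higher than SHAM 4. A log2 fold change of -0.39 ± 0.16 resulted (SE; unadjusted p = 0.0374 in edgeR). The p was under 0.05 in 9 of 21 alternatives. The call was lost with a replicate block, in the 3 limma fits and in 8 of the 10 fits that each left out 1 library, all but those without SG 1 or SHAM 5. The core subunit Uqcrc1 had -0.12 ± 0.12 (SE), and Cyc1, the cytochrome c1 gene, had 0.06 ± 0.11. All 4 small subunits, Uqcrb, Uqcrh, Uqcrq and Uqcr11, had positive values (median 0.20), and the 4 redox and core subunits a median of -0.07, which was 0.02 in limma on FPKM.

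**Figure D3:**
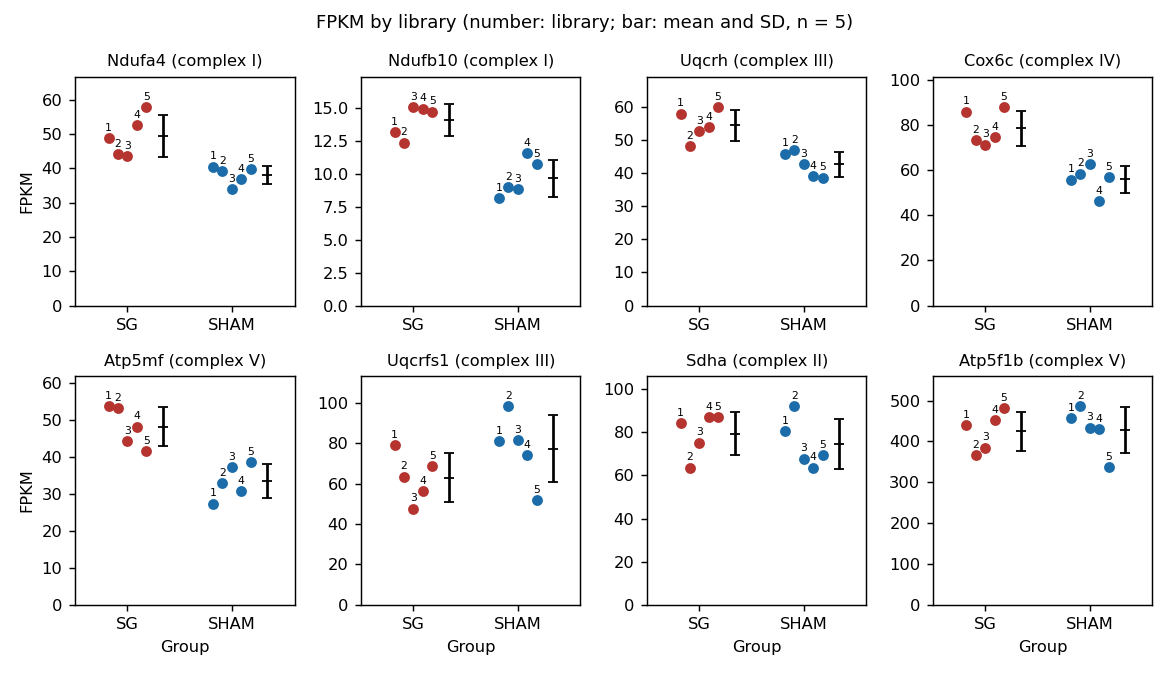
FPKM of 8 genes in each library (numbered points, SG red and SHAM blue), with mean and SD (n = 5), on axes that start at 0. Ndufa4, Ndufb10, Uqcrh, Cox6c and Atp5mf show SG points above all SHAM points, while Uqcrfs1, Sdha and Atp5f1b overlap. Ndufb10 and Atp5mf also overlapped after scaling of the counts.

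Complex IV had a median of 0.13, with 11 of 15 tested genes (73.3%) positive, against 47.4% of all genes tested. At an unadjusted p under 0.05, 3 (20.0%) were higher in SG, against 2.68% of all genes. The median was 0.07 without SHAM 5 and 0.09 without SG 4. Cox6c, a small membrane subunit of cytochrome c oxidase (chr7:74723179-74735650, minus strand), had the smallest p of the whole set. It had 86.0, 73.3, 71.4, 74.6 and 88.2 FPKM in SG and 55.9, 58.5, 62.6, 46.2 and 57.0 in SHAM. The lowest SG library stood above the highest SHAM library. On the log2 scale the difference was 0.39 ± 0.10 (SE; unadjusted p = 0.00208 and adjusted p = 0.991 in edgeR), and it ranged from 0.34 to 0.45 when each library was left out in turn.

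Cox6b1, which joins the monomers of the oxidase, had 46.6, 59.4, 52.5, 50.1 and 54.0 FPKM in SG and 38.2, 46.9, 40.0, 39.1 and 41.6 in SHAM. SG 1 lay just below SHAM 2 in FPKM, and the other libraries lay apart. On the log2 scale the difference was 0.26 ± 0.09 (SE; unadjusted p = 0.0165 in edgeR). Only 2.47% of its FPKM lay in the isoform with the KEGG text, and in that isoform alone the log2 fold change was 0.01. A 4-exon isoform of the same locus without that text averaged 43.1 FPKM in SG and 33.2 in SHAM. A single-exon row with the symbol at chr2:211337271-211337531 averaged 8.28 and 6.83, and how reads are split between it and the spliced gene is uncertain. Cox7c, a small membrane subunit, had 0.24 ± 0.10 (SE; unadjusted p = 0.0387 in edgeR), with overlap between the groups. Cox4i1, the regulatory subunit that binds adenine nucleotides, averaged 158 ± 16.4 FPKM after SG and 137 ± 17.5 after the sham operation (SD, n = 5), with a log2 fold change of 0.12 with an interval from -0.11 to 0.34. For Cox5a the value was -0.02 from -0.31 to 0.28, and its sign was positive in limma on FPKM. The copper chaperone Cox17 and the heme or copper factors Cox10, Cox11 and Cox15 had a median of -0.08, which was 0.05 in limma on FPKM. Only Cox17 was positive in edgeR, at 0.22 ± 0.22 (SE), and the other 3 were negative.

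In complex V the median was 0.04, but -0.01 without SG 4 and -0.03 without SHAM 5. Higher at an unadjusted p under 0.05 were 2 of 15 genes (13.3%), against 2.68% of all genes. The 2 were in the membrane part or the stalk. Atp5mf, the f subunit of the membrane part (chr12:11191812-11198369), had 53.8, 53.2, 44.4, 48.2 and 41.7 FPKM in SG and 27.4, 32.9, 37.3, 30.8 and 38.7 in SHAM. The groups did not overlap in FPKM, where SG 5 and SHAM 5 came closest, but overlapped after scaling of the counts. This gave a log2 fold change of 0.39 ± 0.13 (SE; unadjusted p = 0.0113 in edgeR). Atp5pf, the F6 subunit of the stalk, had 0.25 ± 0.10 (SE; unadjusted p = 0.0334 in edgeR), and Atp5pb, the b subunit, 0.21 ± 0.12. The reads of Atp5pb are shared with a near-identical copy: the sum of both had 0.18, and the isoforms of Atp5pb with the KEGG text alone had 0.38.

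The head of the ATP synthase, where ATP is made, differed by less than its spread. Atp5f1b had 439, 367, 385, 452 and 481 FPKM in SG and 457, 486, 434, 431 and 336 in SHAM. SHAM 5 was the lowest library, and the others overlapped. The log2 fold change was -0.11 with an interval from -0.38 to 0.16. Atp5f1a had 219 ± 20.6 and 206 ± 26.4 FPKM (SD, n = 5) and a log2 fold change of 0.00 from -0.27 to 0.27. The 7 stalk and other membrane genes were all positive, with a median of 0.21 (0.18 with the sum of both copies in place of Atp5pb), and the 5 head genes had a median of 0.00. Leaving out each library in turn gave 0.14 to 0.23 for the former, with 6 of 7 positive without SG 4 or SHAM 5, and -0.07 to 0.04 for the head. The 3 ring genes were all negative, with a median of -0.18, which was 0.06 in limma on FPKM and -0.03 when only isoforms with the KEGG text were summed. It ranged from -0.24 to -0.01 over the libraries left out in turn. Atp5mc2 ranged from 21.5 FPKM in SHAM 1 to 78.6 in SG 3, a wide spread within both groups.

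The vacuolar ATPase had a median of 0.01 (-0.07 to 0.03 when each library was left out in turn), and 0 of its 15 tested genes had an unadjusted p under 0.05 in edgeR or an adjusted p under 0.05. Atp6v0c averaged 102 ± 10.9 FPKM after SG and 101 ± 3.28 after the sham operation (SD, n = 5), with a log2 fold change of -0.08 from -0.29 to 0.13, positive in limma on FPKM. Atp6v1a, the catalytic A subunit, had 0.01 from -0.20 to 0.23. The smallest p-values belonged to Atp6v1b2, the B subunit (-0.25 ± 0.19 SE), Atp6v0e1 (-0.24 ± 0.19) and Atp6v0a2, an a subunit of the membrane part (-0.13 ± 0.10). For 13 of the 15 the interval excluded a 1.5-fold change. Among the genes with other symbols, the pyrophosphatases Ppa1 and Ppa2 had -0.14 ± 0.10 and 0.10 ± 0.15, and 0 of 10 tested had an unadjusted p under 0.05.

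Textbook subunit classes, chosen after the values were seen, split the complexes further. The 7 tested core subunits of complex I had a median of -0.03 with 2 positive, and the other 29 Nduf genes a median of 0.13 with 20 positive and all 6 of the genes higher at an unadjusted p under 0.05. When each library was left out in turn, the core median ranged from -0.11 to 0.02 and the other from 0.09 to 0.21. In limma on FPKM these medians were 0.06 and 0.26. In complex IV the 10 structural subunits had a median of 0.14 with 9 positive, and 0.07 to 0.19 over the libraries left out in turn. These classes also differ in transcript length: the median length of the most abundant isoform was 1607 nt in the complex I core and 577 nt in the other Nduf genes.

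Length was therefore set beside the differences, in classes chosen after the values were seen. Among genes of complexes I to V, 33 had a most abundant isoform under 600 nt. Their median log2 fold change was 0.17, with 27 positive and 8 (24.2%) higher at an unadjusted p under 0.05 in edgeR. The 21 genes of 600 to under 1000 nt had 0.09, with 5 (23.8%) higher. The 18 of 1000 to under 2000 nt had -0.01, with 0 higher and Uqcrfs1 lower. The 6 genes of 2000 nt or more had -0.08, a class too small to read alone. When each library was left out in turn, the shortest class ranged from 0.15 to 0.21 and the class of 1000 to under 2000 nt from -0.06 to 0.04. Other genes of at least 10 FPKM showed the same order of medians, with 0.09 under 600 nt (252 genes) and 0.00 at 600 to under 1000 nt. Their longer classes had -0.03 at 1000 to under 2000 nt and -0.04 at 2000 nt or more (1741 genes). From the shortest class to the longest, 14.7%, 6.91%, 3.42% and 1.21% of these other genes were higher at an unadjusted p under 0.05 in edgeR. The genes of cytosolic ribosomal proteins, which are also short, had a median of 0.18 over 79 tested, with 26 higher and 1 lower at an unadjusted p under 0.05 (34.2% of them, against 4.53% of all genes). The part of transcript length in the differences of the oxidative phosphorylation genes was not tested.

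**Figure D4:**
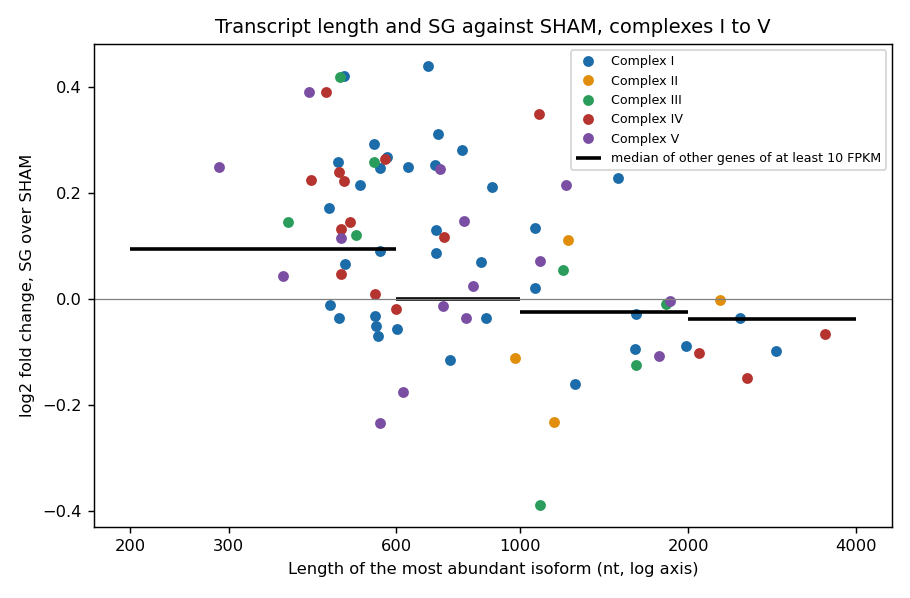
Log2 fold change (SG over SHAM) of each tested gene of complexes I to V against the length of its most abundant isoform (log axis), with black bars for the median of other genes of at least 10 FPKM in each length class. The 13 genes higher at an unadjusted p under 0.05 all lie under 1000 nt, and Ndufa1 (1.78) is left out.

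Near-identical copies changed the value of a few genes. Ndufa1, a small membrane subunit of complex I on chromosome X, was listed at 0 in SHAM 1, SHAM 2 and SHAM 3 and at 13.5 to 34.9 FPKM in SG. LOC108348144, which shares its KEGG orthology entry, carried 527, 460 and 741 counts in those 3 SHAM libraries. Summed over both, the counts were 864, 735, 705, 869 and 845 in SG and 527, 460, 741, 444 and 490 in SHAM. The sums in CPM lay between 9.02 and 11.0 after SG and between 6.25 and 9.54 after the sham operation, with overlap. Ndufa1 alone had a log2 fold change of 1.78 ± 1.33 (SE), and that of the sum 0.38 ± 0.13 (edgeR unadjusted p = 0.0151, adjusted p = 0.991).

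Beside the untested Ndufs6 entry, an accessory subunit of the peripheral arm of complex I, the table has LOC679739, which RefSeq names Ndufs6, and LOC100912599, with the same KEGG orthology entry. SHAM 4 had 98.6% of the counts of this pair in LOC679739, and the other 9 libraries had 45.1% to 62.1%. Their sum had a log2 fold change of 0.12 ± 0.12 (SE). Atp5pb shared its reads with LOC100911417 almost evenly in every library, with 46.6% to 50.7% in Atp5pb. Their sum had 0.18 ± 0.12. The values of single members of these pairs are uncertain.

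**Figure D5:**
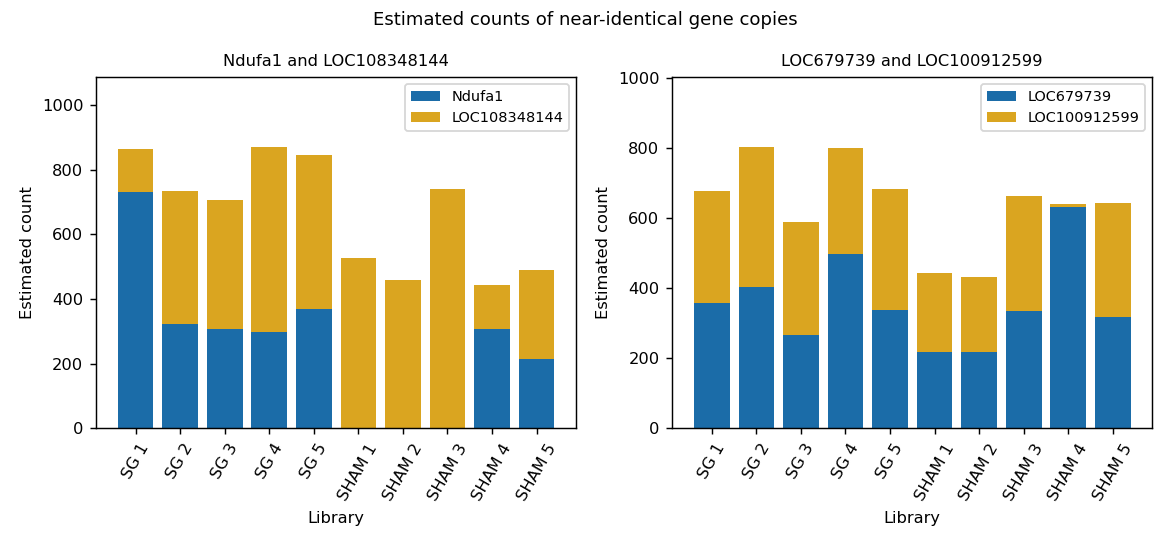
Estimated counts per library, stacked for each pair of near-identical genes. Ndufa1 is at 0 in SHAM 1 to SHAM 3 where LOC108348144 carries 460 to 741 counts, and SHAM 4 has 98.6% of its pair in LOC679739.

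The groups overlapped when the genes were averaged per library. Ndufa1, at 0 counts in 3 SHAM libraries, was left out, and the mean of log2 CPM over the other 102 genes, each centred on its own mean, was 0.05, -0.05, -0.03, 0.15 and 0.07 in SG 1 to SG 5 and -0.10, 0.00, 0.08, -0.03 and -0.14 in SHAM 1 to SHAM 5. SG 4 was highest, SHAM 3 was above the other 4 SG libraries, and SHAM 1 and SHAM 5 were lowest. With Ndufa1, SHAM 3 had 0.03 and SHAM 1 had -0.15. Complex II had its lowest value in SG 2 (-0.30) and its highest in SHAM 2 (0.20). Summed FPKM of all 117 genes averaged 4535 ± 382 after SG and 4127 ± 378 after the sham operation (SD, n = 5), with SHAM 5 lowest at 3559. SG 2 and SHAM 5 were also the libraries with the most macrophage marker RNA, and SG 2 had the most fibroblast and stellate cell marker RNA. The part of these and other cell types was not tested. Without both libraries, the median was 0.05, and 14 of the 103 tested genes were higher and 2 lower at an unadjusted p under 0.05. Over all genes, 562 of 11064 stood under that p in either direction. The median of complex V was then -0.01 and that of the vacuolar ATPase -0.05.

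Genes that serve the chain from outside were taken from fixed lists, and none passed the adjusted threshold. Of 16 tested genes of the citric acid cycle and pyruvate dehydrogenase, 1 (6.25%) was higher at an unadjusted p under 0.05, near the 4.53% of all genes tested that stood under it in either direction (median -0.01). It was Pdhb, the E1 beta subunit of pyruvate dehydrogenase, with 20.6, 22.9, 19.3, 22.4 and 22.8 FPKM in SG and 13.6, 19.2, 17.2, 17.6 and 15.1 in SHAM. The groups met only at SG 3 and SHAM 2. SG over SHAM came to 0.27 ± 0.08 (SE, log2; unadjusted p = 0.00955 in edgeR). Cs, citrate synthase, had -0.26 ± 0.14, but 0.05 when only exact reference matches were summed.

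Regulators of respiratory genes had a median of 0.00 over 22 tested, with 0 at an unadjusted p under 0.05 in edgeR. The list holds transcription factors and coactivators, but also enzymes such as the mitochondrial DNA polymerase. The coactivator Ppargc1a had -0.10 ± 0.25 (SE), the nuclear receptor Esrra -0.05 ± 0.10, the activators Nrf1 and Gabpa 0.08 ± 0.11 and -0.06 ± 0.10, and Tfam, which packages mitochondrial DNA, 0.12 ± 0.12. The signs of Esrra and Gabpa were positive in limma on FPKM, and that of Ppargc1a was positive without SHAM 2. The smallest p-values of the list belonged to Polg2, the accessory subunit of the mitochondrial DNA polymerase (-0.49 ± 0.25), and Pprc1 (-0.19 ± 0.17).

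Assembly factors had a median of 0.01 over 43 tested, of which 4 (Cox10, Cox11, Cox15 and Cox17) are also in the set. Bcs1l, which inserts the Rieske protein into complex III, was the 1 factor (2.33%) at an unadjusted p under 0.05, with -0.42 ± 0.19 (SE; edgeR unadjusted p = 0.0456). It lay between 4.01 and 5.24 FPKM in the SG libraries and between 3.30 and 7.42 in the SHAM libraries. SHAM 5 was the lowest SHAM library, as for Uqcrfs1 and for the summed FPKM of all 117 genes. Carriers and electron donors had a median of 0.05 over 14, and Cycs, cytochrome c, had 0.51 ± 0.22 (SE; unadjusted p = 0.0427 in edgeR) with overlap between the groups. Etfb, a subunit of the electron transfer flavoprotein, had 0.22 ± 0.11. The mitochondrial ribosome had a median of 0.04 over 74, with 5 higher and 1 lower at an unadjusted p under 0.05 (8.11% in all, against 4.53% of all genes tested). The smallest p there belonged to Mrps18b, lower at -0.46 ± 0.13 (SE; unadjusted p = 0.00460 in edgeR). Mrps21 followed, higher at 0.32 ± 0.11 (SE; unadjusted p = 0.0146 in edgeR).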

How the data were processed

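RNA of 5 SG and 5 SHAM livers was depleted of ribosomal RNA and sequenced as paired ends, per the labels' protocols, and samples were grouped by their labels. Reads were handled with StringTie 1.3.4, HISAT2 2.0.4, FastQC 0.10.1 and cutadapt 1.9 on the build Rnor_6.0, per the submitters' processing notes. The authors' deposited table lists 51430 isoforms with FPKM per library, per the file headers. It also holds the authors' estimated counts per isoform. Reads shared by isoforms or copies are divided by estimate, which the p-values of count models do not cover. Whether strand was used in counting is not given here.

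Isoforms of the 4 class codes that tie a transcript to a reference gene (exact, contained, junction-sharing or overlapping) were summed per gene symbol. For 14 tested genes most FPKM lay outside the isoforms with the KEGG text, and 6 were tested only through such isoforms, so sums over the KEGG isoforms alone were added as an alternative. Rounded counts of genes with a mean of at least 1 FPKM were tested with edgeR 4.0.16 (quasi-likelihood F-test, TMM scaling, two-sided, Benjamini-Hochberg over 11139 genes, threshold 0.05) in R 4.3.3. Limma 3.58.1 on log2(FPKM + 0.5), log2(FPKM + 0.1) and log2(TPM + 0.5), DESeq2 1.42.0 and its size factors, no filter, exact reference matches only, a replicate block and leaving out each library were alternatives. Merged copies and leaving out SG 2 with SHAM 5 were added after the data were seen. The edgeR script was tested on simulated data.

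The genes and lists were chosen with earlier results of these data known. Named genes were, per group, the 3 with the smallest p, the 1 of highest level and fixed core subunits, and, per outside list, the 2 with the smallest p plus 5 fixed regulators. A gene picked by this rule is not reported here. Ndufb3, Ndufa11, Ndufb9, Ndufv2 and Ndufa1 were added after their values were seen. Printed promoters come from RefSeq, build GRCr8, which is not the build of the table. Counting error on the summed counts was below the spread within groups for each of the 103 tested genes.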

Additional observations from a re-analysis of the deposited data

Results flagged for a closer look

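In 2 of the 88 groups of 5 libraries tested, 1 library stood far from the other 4, where chance marks about 1 in 20. SG 5 had 22.6 FPKM of Uqcrb, a small subunit of complex III, against 16.7 to 18.3 in the other SG libraries. SG 1 had 34.9 FPKM of Ndufa1, against 13.5 to 17.6 in the others, and was also the library with the largest share of that pair's counts in Ndufa1 (84.7%).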

How the results depend on the processing

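Across the 21 alternatives the count of oxidative phosphorylation genes past the adjusted threshold stayed at 0. At an unadjusted p under 0.05, leaving out each library in turn gave 10 to 16 genes, 10 to 16 of them higher. Limma on log2(FPKM + 0.5) and log2(FPKM + 0.1) gave 22, all 22 higher, and raised the medians, in that order, to 0.16 and 0.17 over all 103 genes, 0.20 and 0.20 for complex I, 0.19 and 0.19 for complex III, 0.23 and 0.24 for complex IV, 0.17 and 0.17 for complex V and 0.11 and 0.11 for the vacuolar ATPase. These FPKM were not scaled further, and the median of all genes rose to 0.08 and 0.09. Of 50 named genes, 38 kept their sign under every alternative and 12 did not.

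In limma on log2(FPKM + 0.5) and log2(FPKM + 0.1), the log2 fold change was 0.091 and 0.092 for Sdha, 0.014 and 0.014 for Atp6v0c, 0.061 and 0.062 for Ndufv1, 0.056 and 0.057 for Ndufs1, 0.081 and 0.082 for Cox5a, 0.094 and 0.094 for Atp5f1a, 0.14 and 0.15 for Esrra and 0.028 and 0.030 for Gabpa. On log2(TPM + 0.5) it was 0.0064 for Sdha, 0.0086 for Atp5f1a and 0.062 for Esrra. With DESeq2 size factors and in DESeq2 it was 0.0026 and 0.0026 for Sdha and 0.00011 and 0.00011 for Atp5f1a. With exact reference matches only, Sdha had 0.024 and Cs 0.046, and with KEGG isoforms only, Sdha had 0.027. Without SG 2 and SHAM 5 together, Sdha had 0.053, Cyc1 -0.0015 and Atp6v1a -0.010. The cause was not tested. Leaving out each library in turn gave -0.050 to 0.066 for Sdha, -0.12 to 0.029 for Ndufv1, -0.082 to 0.029 for Ndufs1, -0.014 to 0.099 for Cyc1, -0.082 to 0.039 for Cox5a, -0.065 to 0.041 for Atp5f1a, -0.042 to 0.046 for Atp6v1a, -0.37 to 0.053 for Ppargc1a and -0.081 to 0.015 for Esrra.

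Replicate numbers shared by SG and SHAM did not pair the libraries: same-numbered libraries deviated together with correlations from -0.22 to 0.14, and 1 of 5 SG libraries correlated best with its own number. With a replicate block, 11 of the 103 genes had an unadjusted p under 0.05, all higher, and the median was 0.05. Over all genes, 456 of 11139 stood under that p in either direction. The counting error of a gene in 1 library (median 0.030 on the log2 scale) was below its standard deviation within groups (median 0.18) for all 103 tested genes, while the error from dividing reads among isoforms and copies was not measured. For 20 of the 103, a 1.5-fold change is not excluded.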
